A study of Mus musculus with 12 samples.

Results

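The 43 genes described here encode the machinery of mitosis: the cyclins, kinases and phosphatases that start it, the checkpoint and kinetochore proteins that hold chromosomes on the spindle, the motors and microtubule-binding proteins that build the spindle, and the factors that split the cell and end mitosis. They were chosen by symbol from a list of known mitotic genes, and all 43 were found, out of 24351 genes listed in any of 3 comparison tables and 20884 listed in all 3. The data are RNA-seq of macrophages grown from mouse bone marrow and treated with monophosphoryl lipid A (MPLA), a detoxified derivative of bacterial lipopolysaccharide that acts through Toll-like receptor 4. The MPLA groups, of 3 libraries each, had been exposed for 4 h, had been exposed for 24 h, or were collected 3 d after priming had ended, and they were set against 3 libraries of cells never given MPLA. All 12 libraries are labelled C57BL/6, and the growth protocol names wild-type males aged 8 to 16 weeks. Marrow cells had grown for 7 days on petri dishes with serum (10%) and macrophage colony stimulating factor (M-CSF, at 10 ng/mL), and M-CSF stayed in the medium of every group to the end. How long the last group was primed and the age of the control cultures at harvest are not given in the sources used here. Time in culture and MPLA therefore cannot be told apart at 3 d, and whether they can at 4 h and 24 h is not known. Nor do the labels say that libraries of 1 group stem from different animals or cultures, so a p-value here weighs a difference against the spread of libraries that may be technical replicates.

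Cells enter mitosis when cyclin A and cyclin B activate the kinase Cdk1, a step that Cdc25 phosphatases release and that Plk1 and the aurora kinases reinforce. Kinetochores then bind spindle microtubules, the spindle assembly checkpoint delays anaphase until every chromosome is attached, and Cdc20 lets the anaphase-promoting complex mark securin and cyclin B for destruction so that sister chromatids part and the cell divides. Most of these genes are transcribed in a wave in G2 and mitosis, so their RNA is low in cells that do not cycle, and M-CSF is a growth factor that drives macrophages and their precursors through the cycle. In bulk RNA such as this, fewer dividing cells and less RNA per dividing cell cannot be told apart.

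The promoters of mitotic genes are known for 2 kinds of short element, the cell cycle genes homology region, through which the DREAM and B-Myb complexes act, and the CCAAT box, bound by NF-Y. The windows printed here run from 250 bases before to 50 bases after the RefSeq transcript start (GRCm38.p6, the first start listed for a gene). They are those of the members that stood lowest at 24 h (Ccnb2 and Aspm), of a mitotic cyclin and the kinase Plk1, and of the 2 members with an entry that were nearest to 0 at 24 h (Bub3 and Tacc3). Each runs 5′ to 3′ on the strand of the gene, and capitals mark every match, on either strand, to the core TTTGAA (read as TTCAAA on the opposite strand), the core variant TTTAAA (its own reverse complement) and the box CCAAT (read as ATTGG on the opposite strand). The windows lie at chr9:70421505-70421804, minus strand (Ccnb2), chr1:139454523-139454822, plus strand (Aspm), chr13:100786437-100786736, minus strand (Ccnb1), chr7:122159185-122159484, plus strand (Plk1), chr5:33657878-33658177, plus strand (Tacc3) and chr7:131560120-131560419, plus strand (Bub3).
Ccnb2: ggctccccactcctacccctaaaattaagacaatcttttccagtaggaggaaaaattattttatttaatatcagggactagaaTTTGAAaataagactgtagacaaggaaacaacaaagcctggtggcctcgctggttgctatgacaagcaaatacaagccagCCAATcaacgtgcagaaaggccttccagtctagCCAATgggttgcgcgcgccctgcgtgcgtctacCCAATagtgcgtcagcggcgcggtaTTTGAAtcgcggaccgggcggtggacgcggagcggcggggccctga
Aspm: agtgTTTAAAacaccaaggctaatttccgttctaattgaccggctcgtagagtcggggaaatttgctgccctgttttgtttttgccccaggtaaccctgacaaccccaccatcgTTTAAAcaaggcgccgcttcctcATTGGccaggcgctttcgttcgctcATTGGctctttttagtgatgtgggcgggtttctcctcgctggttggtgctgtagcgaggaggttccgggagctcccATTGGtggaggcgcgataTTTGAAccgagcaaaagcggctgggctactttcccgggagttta
Ccnb1: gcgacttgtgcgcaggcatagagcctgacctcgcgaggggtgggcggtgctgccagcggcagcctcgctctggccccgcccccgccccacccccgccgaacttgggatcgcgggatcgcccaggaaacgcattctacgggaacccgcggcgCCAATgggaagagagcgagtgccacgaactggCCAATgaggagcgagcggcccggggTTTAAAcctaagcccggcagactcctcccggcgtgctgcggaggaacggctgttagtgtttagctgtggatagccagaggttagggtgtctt
Plk1: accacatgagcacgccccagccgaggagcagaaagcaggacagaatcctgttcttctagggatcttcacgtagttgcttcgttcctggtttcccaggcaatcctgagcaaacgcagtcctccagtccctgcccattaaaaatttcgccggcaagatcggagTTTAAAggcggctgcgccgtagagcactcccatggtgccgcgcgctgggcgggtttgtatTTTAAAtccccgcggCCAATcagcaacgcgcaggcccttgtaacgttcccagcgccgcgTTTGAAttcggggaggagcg
Tacc3: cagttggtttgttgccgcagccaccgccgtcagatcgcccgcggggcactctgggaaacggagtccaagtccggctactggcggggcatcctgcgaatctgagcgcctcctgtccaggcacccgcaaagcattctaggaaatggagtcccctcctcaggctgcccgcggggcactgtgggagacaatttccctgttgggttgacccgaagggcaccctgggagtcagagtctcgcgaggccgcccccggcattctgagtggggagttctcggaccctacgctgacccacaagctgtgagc
Bub3: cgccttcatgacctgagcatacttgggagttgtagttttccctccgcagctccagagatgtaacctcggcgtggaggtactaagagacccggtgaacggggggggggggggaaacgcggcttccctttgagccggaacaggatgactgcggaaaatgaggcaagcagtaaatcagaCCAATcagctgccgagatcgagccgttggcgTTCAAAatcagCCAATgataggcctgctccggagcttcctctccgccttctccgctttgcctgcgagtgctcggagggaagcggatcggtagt
Ccnb2 has a TTTGAA 5 bases past the start and 3 CCAAT boxes upstream, and Aspm likewise has a TTTGAA 7 bases past the start and 3 boxes upstream, these on the opposite strand. Tacc3 has none of these letters in its window, and Bub3 has 1 TTCAAA and 2 CCAAT boxes.

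Of the 43 genes, 37 had a promoter entry, and Ccna2, Cdc25c, Aurkb, Incenp, Tpx2 and Kif20a had none. Either 6-base core stood in 32 of the 37 windows (86.5%), against 7519 of 27025 windows of all genes (27.8%). TTTGAA alone stood in 29 member windows (78.4%, against 18.1% of all) and TTTAAA in 10 (27.0%, against 13.2%). CCAAT stood in 29 member windows (78.4%, against 37.9%), and 27 windows (73.0%, against 10.9%) held both a CCAAT and 1 of the 6-base cores. The 5 member windows without a core were those of Cdc25b, Bub1, Nuf2, Tacc3 and Nusap1. Among 52 windows of other mitotic genes, 27 (51.9%) held a core, and of 32 windows of DNA replication genes 8 (25.0%) did. CCAAT stood in 35 (67.3%) of these other mitotic windows and in 20 (62.5%) of the replication windows. Both a core and CCAAT stood in 20 (38.5%) and 5 (15.6%). These are matches of letters, given as a description and not as sites of binding. Bub3, which had a core and CCAAT boxes, did not pass with DESeq2 at any time, though edgeR called it lower at 4 h and 24 h. Members with and without a core were among the lowered genes, and whether these letters bear on the changes was not tested.

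Each MPLA group was compared with the same 3 controls in a table of its own. The authors' deposited tables hold log2 fold changes and p-values per gene but no values per library, so single libraries and levels of expression are not shown and depth per library is unknown. Every fold change below is MPLA over control as DESeq2 gave it unless edgeR is named, and a gene is called lower or higher where the DESeq2 adjusted p was under 0.05. Each standard error is implied, the size of the log2 change divided by the normal quantile of its deposited p-value. The authors' deposited tables gave an adjusted p for 17523 genes at 4 h, 16442 at 24 h and 15111 at 3 d, with median log2 changes of -0.04, -0.05 and -0.02. In the edgeR columns of the authors' deposited tables the medians were -0.97, -0.46 and -0.15, so that the typical gene stands 0.94, 0.41 and 0.13 lower there on the log2 scale. All 43 genes had an adjusted p at every time, and none was listed at 0 in either group.

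After 4 h of MPLA, 39 of the 43 genes were lower than in controls, 3 were higher (Tpx2, Kif4 and Cenpe) and 1 did not pass (Bub3), in the authors' deposited table with DESeq2. Over all genes tested at 4 h in the authors' deposited table, 31.0% were lower and 31.8% were higher. At 24 h 41 were lower, Tpx2 was higher and Bub3 did not pass in the authors' deposited table, where 32.2% of all tested genes were lower and 32.4% were higher. At 3 d 42 were lower, 0 were higher (also at an unadjusted DESeq2 p under 0.05) and Bub3 again did not pass in the authors' deposited table, against 25.8% lower and 29.5% higher among all tested genes. The genes called higher were not higher in every column, since with edgeR all 43 were lower at 4 h, including Tpx2, Kif4, Cenpe and Bub3, where the authors' deposited table called 50.1% of all listed genes lower and 13.5% higher. With edgeR 42 were lower and 1 higher at 24 h (41.8% and 16.2% of all listed genes in the authors' deposited table), and 42 were lower and 0 higher at 3 d (27.7% and 15.5%). By the baySeq error rate in the authors' deposited table, with the direction taken from DESeq2, 34 were lower at 3 d. The calls of Ccnb1, Cdc25b, Bub1, Ttk, Aurkb, Incenp, Tpx2 and Top2a were lost, with error rates between 0.0706 and 0.741.

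The changes were largest at 24 h for most of the genes, a difference between times that was not tested. The median log2 change of the 43 genes was -1.95 at 4 h, -4.00 at 24 h and -0.84 at 3 d in the authors' deposited tables. Members called lower by at least 2-fold numbered 34 at 4 h, 40 at 24 h and 14 at 3 d, beside 18.5%, 16.4% and 5.20% of all tested genes in the authors' deposited tables. A change of at least 16-fold was reached by 1 gene at 4 h (Aspm), 21 at 24 h and 0 at 3 d, again in the authors' deposited tables. Of all tested genes, 1.11% stood below Aspm at 4 h, and 1.47% stood below Racgap1 at 24 h, which was 16.0-fold lower. Of the 200 genes with the lowest values at 24 h among tested genes with reads in both groups, 22 were members, and 8 were among the lowest 50 of the authors' deposited table. At 4 h 1 member was among the lowest 200 and 0 were among the lowest 100. At 3 d 1 member, Cenpa, was among the lowest 200. The implied standard errors ranged between 0.0525 and 0.271 at 4 h and between 0.0504 and 0.471 at 24 h, small beside most of these changes.

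**Figure D1:**
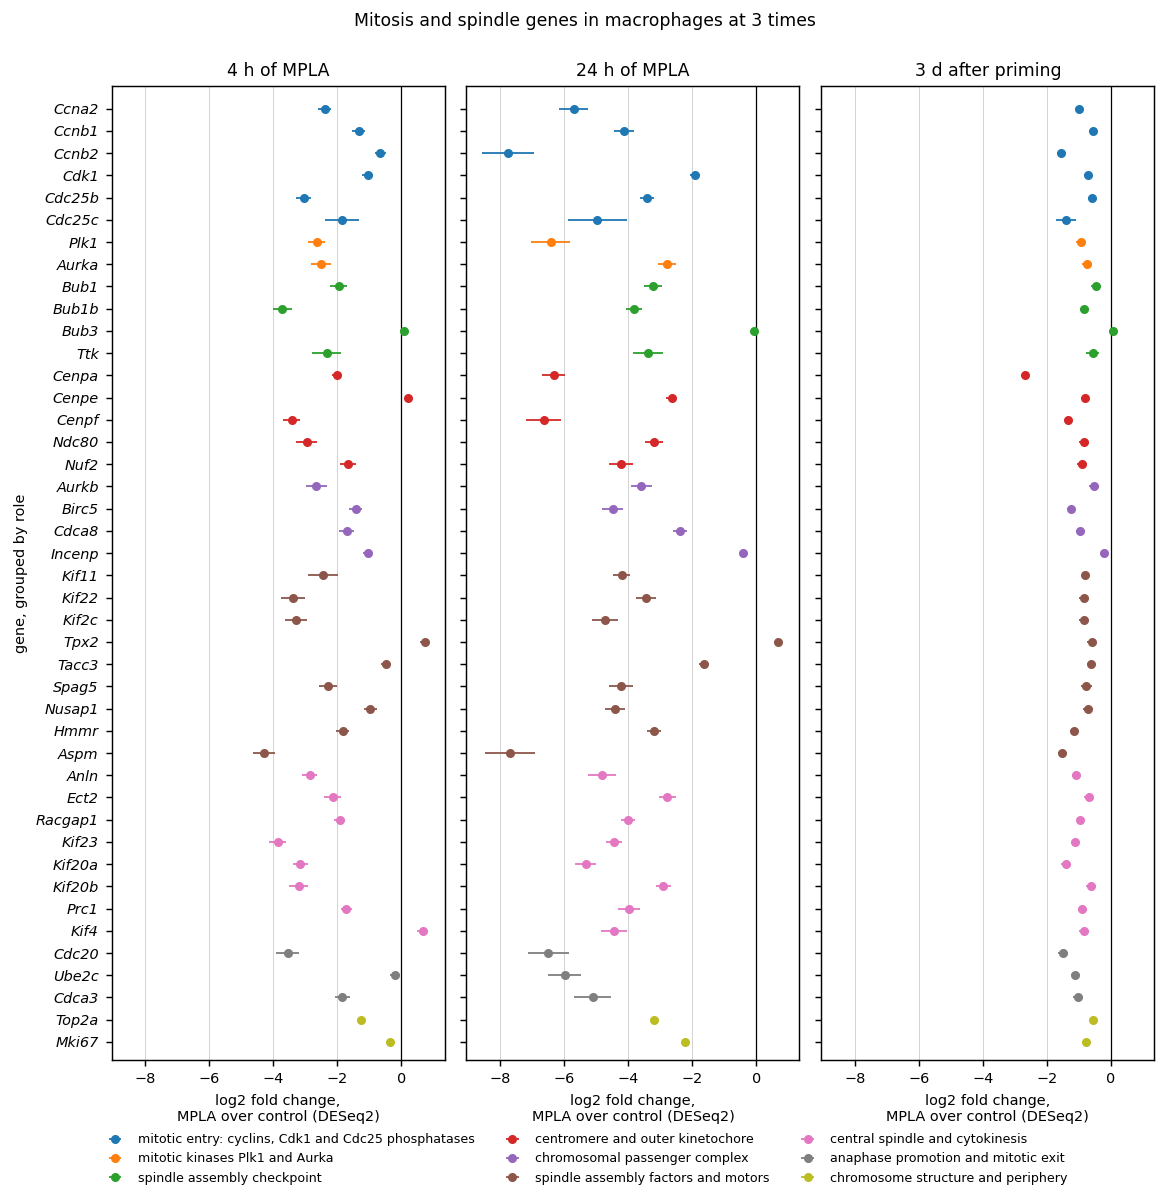
Log2 fold change of each of the 43 genes, MPLA over control, by DESeq2 in the authors' deposited tables, 1 panel for each time, coloured by role, with bars of the 95% interval from the implied standard error; Top2a and Mki67 at 24 h and Cenpa at 3 d have a deposited p of 0 and so no bar. Most points at 24 h lie lowest, Ccnb2 reaching -7.76, and Tpx2, Bub3, Kif4 and Cenpe hold the few points above 0.

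**Figure D2:**
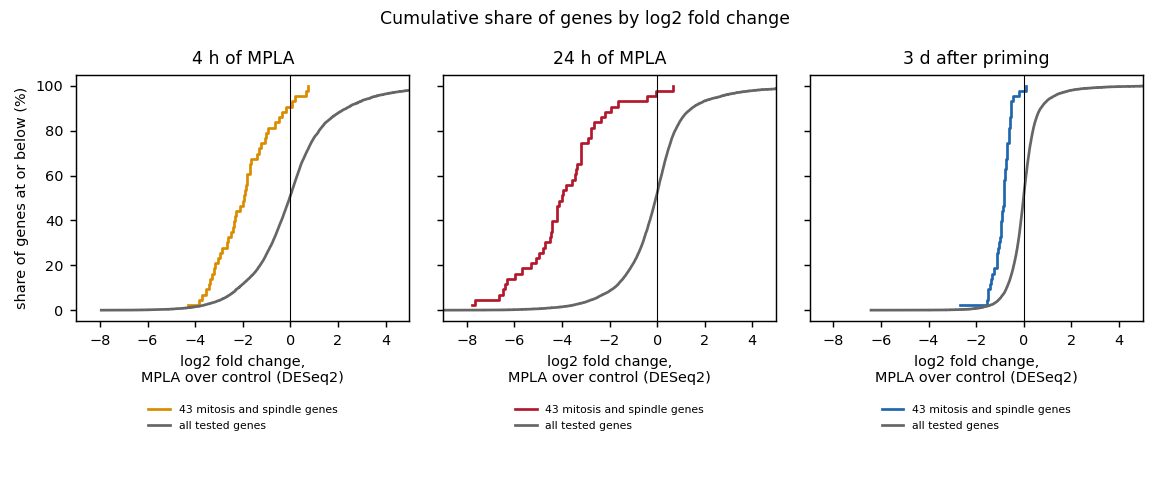
Cumulative share of genes (%) at or below each log2 fold change, MPLA over control by DESeq2, with the 43 genes as a coloured step line and all tested genes as a grey line, cut at -9 and 5. The step line lies left of the grey line over most of its range, with medians of -1.95, -4.00 and -0.84 against -0.04, -0.05 and -0.02. At the low end it does not, since 194, 4 and 40 tested genes stood below the lowest member at 4 h, 24 h and 3 d.

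All 6 genes of mitotic entry were lower at every time with DESeq2, though at 3 d Ccnb1 and Cdc25b did not pass by baySeq. Ccnb2, which encodes cyclin B2 (chromosome 9, 70407692 to 70421547, minus strand, GRCm38), had log2 changes of -0.65 at 4 h, -7.76 at 24 h and -1.55 at 3 d in the authors' deposited tables, with implied standard errors of 0.0862, 0.414 and 0.0703. Its level at 24 h was 217-fold below controls (DESeq2 adjusted p = 1.78e-77 in the authors' deposited table). This is the widest gap between 4 h and 24 h values among the entry genes, with a 1.57-fold decrease at the first time in the authors' deposited table. Ccnb1, which encodes cyclin B1, the other partner of Cdk1 (chromosome 13, 100778650 to 100786570, minus strand), stood at -1.33, -4.14 and -0.56 in the authors' deposited tables. Ccna2, cyclin A2 (chromosome 3), stood at -2.39, -5.70 and -1.00, the 24 h value being a 51.9-fold decrease in the authors' deposited tables. Thus the A-type cyclin was already 5.24-fold lower at 4 h, when the B-type cyclins were lowered less in the authors' deposited table. Cdk1, the kinase itself (chromosome 10, 69335146 to 69352938, minus strand), changed less than its cyclins at 24 h, with -1.05, -1.92 and -0.71 and implied standard errors of 0.0819, 0.0818 and 0.0619 in the authors' deposited tables. Cdc25b, a phosphatase that starts Cdk1 activation at the centrosome, was at -3.05, -3.41 and -0.60, so it stood almost as low at 4 h as at 24 h in the authors' deposited tables. Cdc25c, a related phosphatase, was at -1.86, -4.96 and -1.40 with the widest standard errors of the 43 genes at 4 h and 24 h (0.271 and 0.471) in the authors' deposited tables.

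Both mitotic kinases outside the cyclin group were lower at the 3 times. Plk1, which drives centrosome maturation and mitotic entry (chromosome 7, 122159439 to 122169873, plus strand), had log2 changes of -2.64, -6.41 and -0.95 with implied standard errors of 0.139, 0.312 and 0.0761 in the authors' deposited tables. At 24 h it was 84.8-fold lower (DESeq2 adjusted p = 1.14e-92 in the authors' deposited table). Aurka, aurora kinase A of the spindle poles, was at -2.51, -2.79 and -0.74 in the authors' deposited tables. The values of the kinases lay close together at 4 h, while that of Plk1 was far below that of Aurka at 24 h, a difference that was not tested.

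In the spindle assembly checkpoint 3 of 4 genes were lower at every time with DESeq2 and Bub3 did not pass; at 3 d Bub1 and Ttk did not pass by baySeq either. Bub1b, which encodes BubR1, the subunit that holds Cdc20 in check, was at -3.72, -3.81 and -0.84, and was 13.2-fold lower at 4 h with an implied standard error of 0.151 (DESeq2 adjusted p = 2.43e-132 in the authors' deposited table). The kinase Bub1, which recruits checkpoint proteins to kinetochores, was at -1.95, -3.22 and -0.46 in the authors' deposited tables. Ttk, the checkpoint kinase Mps1, was at -2.33, -3.37 and -0.58 in the authors' deposited tables. Bub3 (chromosome 7, 131560222 to 131571895, plus strand), the partner through which both Bub1 and BubR1 reach the kinetochore and which also serves outside mitosis, had log2 changes of 0.08 (95% interval from the implied standard error, -0.04 to 0.19), -0.06 (-0.15 to 0.04) and 0.07 (-0.01 to 0.16) in the authors' deposited tables. Its DESeq2 adjusted p was 0.252, 0.347 and 0.147 in the authors' deposited tables. In the edgeR columns it was lower at 4 h (-0.86) and at 24 h (-0.47) and stood at -0.06 at 3 d in the authors' deposited tables, so whether Bub3 passes depends on the columns used. In neither set of columns was it lowered as far as its 3 partners.

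Of 5 centromere and outer kinetochore genes, 4 were lower at 4 h and all 5 at 24 h and 3 d. Cenpa, the histone H3 variant that marks the centromere (chromosome 5, 30666777 to 30674830, plus strand), had log2 changes of -2.00, -6.32 and -2.69 in the authors' deposited tables. At 3 d it was 6.44-fold lower, and it alone of the 43 genes was more than 4-fold lower then in the authors' deposited table, where its p was listed as 0 and no standard error follows from it. Cenpf, a large coiled-coil protein that joins the kinetochore in G2, was at -3.42, -6.63 and -1.36, or 98.9-fold lower at 24 h (DESeq2 adjusted p = 7.38e-123 in the authors' deposited tables). Ndc80 and Nuf2 encode the paired subunits that grip microtubule ends. Ndc80 was at -2.95, -3.18 and -0.84 in the authors' deposited tables. Nuf2 was at -1.67, -4.21 and -0.90 in the authors' deposited tables, so the values of these partners lay apart at 4 h and 24 h, a difference that was not tested. Cenpe, a kinesin that carries chromosomes to the spindle equator, was at 0.21 at 4 h with an implied standard error of 0.0699 (DESeq2 adjusted p = 0.00586 in the authors' deposited table), and at -0.73 with edgeR, so its direction at 4 h turned between the columns. At 24 h and 3 d Cenpe was lower, at -2.64 and -0.82 in the authors' deposited tables.

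The chromosomal passenger complex corrects faulty attachments and later sets up cytokinesis, and its 4 genes were lower at all times with DESeq2, to unequal extents. Aurkb and Incenp did not pass by baySeq at 3 d. Aurkb, its kinase, was at -2.65, -3.58 and -0.53 in the authors' deposited tables. Birc5, or survivin, which docks the complex at centromeres, was at -1.42, -4.48 and -1.24, a 22.4-fold decrease at 24 h in the authors' deposited tables. Cdca8, or borealin, was at -1.70, -2.38 and -0.96 in the authors' deposited tables. Incenp, the scaffold to which the others bind, changed least of the 4, with -1.04 at 4 h, -0.41 at 24 h and -0.21 at 3 d, and implied standard errors of 0.0718, 0.055 and 0.0482 in the authors' deposited tables. With DESeq2, though not with edgeR, only Incenp and Kif20b of the 43 had a 4 h value below their 24 h value in the authors' deposited tables.

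Among 9 spindle assembly factors and motors, 8 were lower at 4 h and 24 h and all 9 at 3 d. Aspm, which focuses microtubule minus ends at spindle poles and orients the spindle (chromosome 1, 139454772 to 139494091, plus strand), had the lowest value of all 43 genes at 4 h, -4.29 with an implied standard error of 0.176, a 19.6-fold decrease in the authors' deposited table (DESeq2 adjusted p = 3.17e-130). At 24 h it was at -7.67, or 203-fold lower, and at 3 d at -1.52 in the authors' deposited tables. Kif11, the kinesin Eg5 that pushes the poles apart, was at -2.44, -4.20 and -0.80 in the authors' deposited tables. The other motors were also lowered early. Kif22, a chromosome-arm kinesin, was at -3.38, -3.45 and -0.85 in the authors' deposited tables. Kif2c, or MCAK, which takes microtubules apart at kinetochores, was at -3.29, -4.72 and -0.86 in the authors' deposited tables. Spag5, or astrin, which stabilizes spindle poles and attachments, was at -2.28, -4.22 and -0.77 in the authors' deposited tables. Hmmr, a receptor for hyaluronan that also acts at spindle poles, was at -1.83, -3.19 and -1.15 in the authors' deposited tables. By contrast, 2 factors, Nusap1 and Tacc3, were less than 2-fold lower at 4 h by DESeq2, though not by edgeR (-1.89 and -1.41). Nusap1, which bundles microtubules near chromosomes, was at -0.96, -4.40 and -0.71 in the authors' deposited tables. Tacc3, which stabilizes spindle microtubules and is a substrate of aurora A, was at -0.48, -1.63 and -0.64 in the authors' deposited tables.

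Tpx2, the activator and spindle anchor of aurora A (chromosome 2, 152847964 to 152895321, plus strand), did not follow the others. In the authors' deposited table it was 1.67-fold higher at 4 h (log2 change 0.74, implied standard error 0.0708, DESeq2 adjusted p = 4.06e-25), though -0.19 with edgeR, which called it lower. At 24 h it was higher with both tools, by 0.68 with DESeq2 (implied standard error 0.0644) and, by edgeR, 0.26 in the authors' deposited table, while 41 of the 43 genes were lower. At 3 d its log2 value in the authors' deposited table was -0.61, a 1.53-fold decrease that did not pass by baySeq. It was the only gene of the 43 whose lowest value came at 3 d, and its kinase Aurka was lower at all times in the authors' deposited tables. Only 0.167% of the 50-base windows of its transcripts were shared with other genes of the annotation, and no exon of another gene overlapped it on the opposite strand.

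Central spindle and cytokinesis genes, 8 in all, were lower in 7 of 8 cases at 4 h and in every case at 24 h and 3 d. Kif23, a motor of the centralspindlin complex, was at -3.85, -4.45 and -1.13, and its 4 h value was a 14.4-fold decrease (DESeq2 adjusted p = 7.52e-182 in the authors' deposited tables). Its partner Racgap1 was at -1.92, -4.00 and -0.96 in the authors' deposited tables, and so stood higher than Kif23 at 4 h. Ect2, which activates RhoA at the cleavage furrow, was at -2.14, -2.77 and -0.70 in the authors' deposited tables. Anln, anillin, the scaffold of the contractile ring, was at -2.86, -4.81 and -1.09 in the authors' deposited tables. RNA of both furrow genes was thus lowered by 4 h as well. Kif20a, a kinesin that carries Plk1 to the midzone, was at -3.15, -5.32 and -1.42 in the authors' deposited tables, but 29.3% of its exon length is overlapped on the opposite strand by the gene Cdc23. Kif20b, its relative, was at -3.20, -2.90 and -0.63 in the authors' deposited tables. Prc1, which bundles antiparallel microtubules of the midzone, was at -1.71, -3.97 and -0.91 in the authors' deposited tables.

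Kif4 (chromosome X, 100625737 to 100727214, plus strand), a chromosome-bound kinesin that works with Prc1 and condensin, was called in opposite directions at 4 h and 24 h with DESeq2. It was 1.59-fold higher at 4 h in the DESeq2 columns (0.67, implied standard error 0.0916, DESeq2 adjusted p = 6.27e-13) but lower by edgeR (-0.26) in the authors' deposited table. At 24 h it was 21.5-fold lower (-4.43, implied standard error 0.205), and at 3 d it was at -0.84 in the authors' deposited tables. Exons of the gene Pdzd11 overlap 15.1% of its exon length on the opposite strand, and no source used here says whether reads were counted by strand. The part of that overlap in the 4 h value was not tested.

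The 3 genes of anaphase promotion and mitotic exit were lower throughout. Cdc20, the activator of the anaphase-promoting complex (chromosome 4, 118432901 to 118437352, minus strand), had log2 changes of -3.55, -6.49 and -1.49, with implied standard errors of 0.176, 0.326 and 0.081 in the authors' deposited tables. It was 89.8-fold lower at 24 h (DESeq2 adjusted p = 3.23e-87 in the authors' deposited table). Ube2c, the ubiquitin-conjugating enzyme that works with the complex, was at -0.20, -5.98 and -1.12 in the authors' deposited tables. Its 4 h decrease was 1.15-fold (implied standard error 0.0842, DESeq2 adjusted p = 0.0305 in the authors' deposited table), the weakest among the 39 genes lowered then. Cdca3, which promotes destruction of the mitosis inhibitor Wee1, was at -1.84, -5.10 and -1.04 in the authors' deposited tables. Exons of the gene Tnnc2 overlap 22.8% of Ube2c on the opposite strand.

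Top2a, the topoisomerase that untangles sister chromatids, was at -1.26, -3.19 and -0.55 in the authors' deposited tables. Mki67, which encodes the proliferation marker Ki-67, a coat of mitotic chromosomes, was at -0.35, -2.21 and -0.79 in the authors' deposited tables. Ki-67 RNA was therefore only 1.28-fold lower at 4 h by DESeq2 (implied standard error 0.0525, adjusted p = 4.24e-11 in the authors' deposited table), while Bub1b was 13.2-fold lower. By edgeR the log2 changes of Mki67 and Bub1b at 4 h were -1.29 and -4.66. The deposited p of Top2a and Mki67 at 24 h is 0, from which no standard error follows. At 3 d Top2a did not pass by baySeq.

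Across the 3 times, 40 of the 43 genes had their lowest DESeq2 value at 24 h in the authors' deposited tables. These include Bub3, which did not pass then. Left over were Incenp and Kif20b, lowest at 4 h, and Tpx2, lowest at 3 d. With edgeR, Cdc25b, Aurka, Bub1b, Ndc80, Kif22 and Bub3 were also lowest at 4 h, so this pattern moved with the columns. Bub1b, for one, was at -4.66 at 4 h and -4.23 at 24 h by edgeR. The 3 comparisons share the same 3 controls and each table was scaled on its own, so values are set side by side and no difference between times was tested. By 4 h 21 genes were at least 4-fold lower and were also at least 4-fold lower at 24 h in the authors' deposited tables. They include Plk1, Aurka, Aurkb, Bub1b, Cdc20, Cdc25b, Aspm and the kinesins Kif11, Kif20a, Kif20b, Kif22, Kif23 and Kif2c. Of all tested genes, 11.6% stood below Cenpa at 4 h (4.01-fold lower) and 9.09% below Cdk1 at 24 h (3.79-fold lower). A further 7 genes were less than 2-fold lower, or higher, at 4 h and at least 2-fold lower at 24 h in the authors' deposited tables. These were Ccnb2, Cenpe, Kif4, Mki67, Nusap1, Tacc3 and Ube2c, which belong to different roles. By edgeR, Ccnb2 (-1.58), Mki67 (-1.29), Nusap1 (-1.89), Tacc3 (-1.41) and Ube2c (-1.13) were more than 2-fold lower at 4 h. Cenpe (-0.73) and Kif4 (-0.26) were not, so this group rests on the DESeq2 columns. At 3 d 41 genes had a value between that at 24 h and 0, the exceptions being Tpx2 and Bub3.

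Other genes of the pathway were lowered as well, to differing degrees. Of 67 further mitotic genes, 54 were lower and 6 higher at 4 h, 59 and 6 at 24 h, and 45 and 4 at 3 d in the authors' deposited tables, with medians of -1.93, -2.59 and -0.55. Their shares were 80.6% and 8.96%, 88.1% and 8.96%, and 67.2% and 5.97%. Over all tested genes the shares were 31.0% and 31.8%, 32.2% and 32.4%, and 25.8% and 29.5%. Lowest among the 67 were Depdc1b at 4 h (-5.89) and Pif1, a helicase, at 24 h (-7.42) in the authors' deposited tables. Pttg1, which encodes securin, the inhibitor of separase, was higher at each time, at 3.10, 2.34 and 1.14 by DESeq2 and 2.16, 1.93 and 1.02 by edgeR in the authors' deposited tables. Trip13, which disassembles the checkpoint complex, was also higher at 4 h (2.47) and 24 h (0.87), and so was Zwint, a kinetochore protein, at 24 h (1.10) in the authors' deposited tables.

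Condensin and cohesin genes numbered 13, of which 11, 12 and 11 were lower and 2, 1 and 0 higher with DESeq2 at 4 h, 24 h and 3 d (2, 0 and 0 higher with edgeR) in the authors' deposited tables. The DESeq2 shares were 84.6% and 15.4%, 92.3% and 7.69%, and 84.6% and 0%. Over all tested genes they were 31.0% and 31.8%, 32.2% and 32.4%, and 25.8% and 29.5%. The condensin subunit Ncapd2 was at -3.27, -3.78 and -0.92 in the authors' deposited tables, whereas the cohesin subunits Stag1 (1.38) and Stag2 (1.69) were higher at 4 h. Of 15 genes of the anaphase-promoting complex and its direct partners, 6 were lower and 6 higher at 4 h, 4 and 5 at 24 h, and 7 and 2 at 3 d with DESeq2, while edgeR gave 12 and 3, 11 and 1, and 11 and 0 in the authors' deposited tables. The DESeq2 shares were 40.0% and 40.0%, 26.7% and 33.3%, and 46.7% and 13.3%, near those of all tested genes at 4 h and 24 h. With edgeR 50.1%, 41.8% and 27.7% of all listed genes were lower, and 13.5%, 16.2% and 15.5% higher. The median of those 15 was -0.05, -0.04 and -0.11 with DESeq2 and -0.99, -0.45 and -0.24 with edgeR in the authors' deposited tables, beside its activator Cdc20 and its enzyme Ube2c, which were far lower at 24 h. Fbxo5, an inhibitor of the complex, was its lowest gene at 4 h (-4.15) and at 24 h (-2.33) in the authors' deposited tables.

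DNA replication genes were mostly lower at 4 h and 24 h. Of 40 such genes 29 were lower and 7 higher at 4 h, and 31 and 5 at 24 h, with medians of -1.13 and -0.59 in the authors' deposited tables. These are 72.5% and 17.5%, and 77.5% and 12.5%, beside 31.0% and 31.8%, and 32.2% and 32.4%, of all tested genes. At 3 d 6 were lower and 14 higher with DESeq2 (median 0.10), against 10 lower and 7 higher with edgeR (median -0.03) in the authors' deposited table, so the balance turned between the columns. Over all genes the shares at 3 d were 25.8% lower and 29.5% higher by DESeq2 and 27.7% and 15.5% by edgeR, and the 10 lower and 7 higher of 40 replication genes by edgeR are close to those edgeR shares in the authors' deposited table. Mcm3, a subunit of the replicative helicase, was at -1.67, -0.29 and 0.61 in the authors' deposited tables. Mcm2, another subunit, was at -2.58, -0.49 and 0.57 in the authors' deposited tables. Both were higher at 3 d also with edgeR (0.48 and 0.44 in the authors' deposited table), unlike Tk1, thymidine kinase, at -1.83, -3.01 and -0.67. No test compared these lists.

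**Figure D3:**
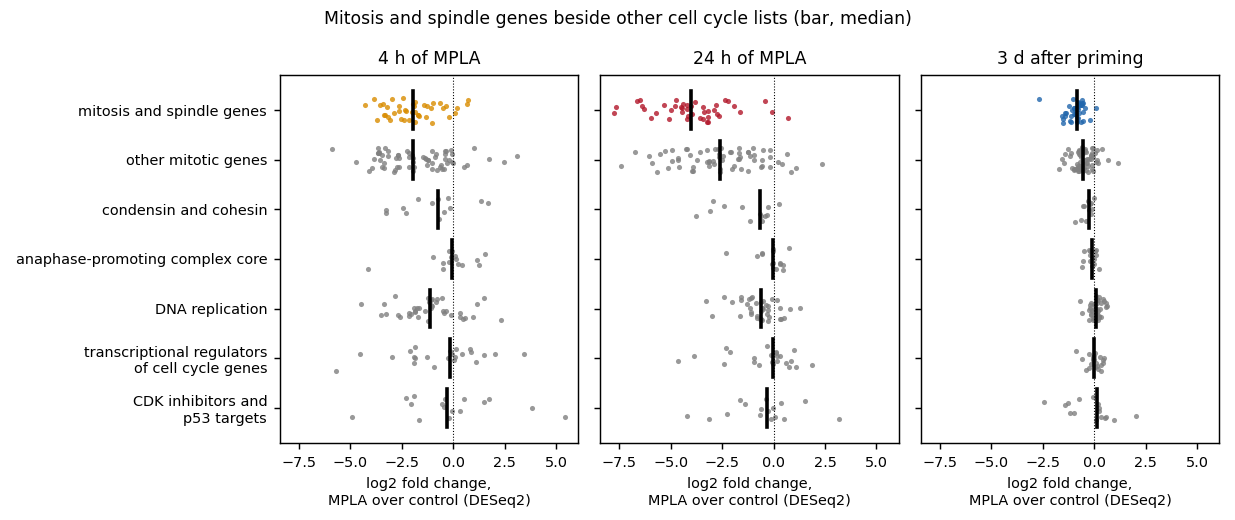
Log2 fold change, MPLA over control by DESeq2, of each gene of the 43 mitosis and spindle genes and of the other gene lists at the 3 times, as points with the median of each list as a bar. The 43 genes have medians of -1.95, -4.00 and -0.84, and the 40 DNA replication genes -1.13, -0.59 and 0.10.

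Some markers of marrow progenitors were lower beside these genes, and markers of other cells differed from list to list. All 12 macrophage markers had reads in both groups in the authors' deposited tables, and 4 were lower and 7 higher at 4 h, 7 and 5 at 24 h, and 5 and 7 at 3 d. Their shares were 33.3% and 58.3%, 58.3% and 41.7%, and 41.7% and 58.3%. Over all tested genes the shares were 31.0% and 31.8%, 32.2% and 32.4%, and 25.8% and 29.5%. Among the macrophage markers Csf1r, the receptor of M-CSF, was lower at -1.01, -1.52 and -0.54 in the authors' deposited tables. At 24 h Mrc1 was at -5.67 and Cd163 at -5.24, while Fcgr1 was higher at 3.70 in the authors' deposited table. These 4 markers were named after their values were seen. Of 10 marrow progenitor markers, the tested ones were lower in 3 of 7 cases at 4 h, 4 of 5 at 24 h and 3 of 4 at 3 d, and 0 were higher by DESeq2, also at an unadjusted p under 0.05, or by edgeR in the authors' deposited tables. Sox4 was at -6.37, -6.37 and -2.03, Cd34 at -0.89, -5.81 and -0.98, and Kit, the stem cell factor receptor gene, at -1.42, -4.30 and -0.77 in the authors' deposited tables. Gata2 did not pass at any time, at 0.02, 0.34 and -0.18 with wide implied standard errors (0.945, 0.783 and 0.476) in the authors' deposited tables. For markers of other lineages at 24 h, the counts lower and higher in the authors' deposited table were 1 and 1 of 3 tested for granulocytes, 1 and 0 of 2 for erythroid cells, 2 and 0 of 4 for B cells, 2 and 0 of 2 for T and NK cells, 2 and 3 of 6 for dendritic cells and 0 and 4 of 6 for stromal cells. Each of these lists holds few tested genes, and over all tested genes 32.2% were lower and 32.4% higher then. After MPLA, Elane and Ctsg were listed at 0 at 4 h, Flt3, Elane, Prtn3 and Ctsg at 24 h, and Ctsg and Ms4a3 at 3 d, whereas Mpo was listed at 0 in the controls at 4 h. The tables used here give no summed levels for these markers, and their part in the changes of the mitosis genes was not tested. Among the 3 MPLA groups depth relative to the controls was 0.859 at 4 h, 0.934 at 24 h and 2.32 at 3 d, as read from constants of the authors' deposited tables, and the part of depth was not tested either.

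Overlap with neighbouring genes limits a few values, since strand use in counting is not stated. Exons on the opposite strand, in the GENCODE M21 annotation of GRCm38, overlap 12.7% of Cdc25c, 12.5% of Ccna2 and 11.1% of Prc1 in addition to the genes already named. Transcripts of other genes share 23.4% of the 50-base windows of Ccnb1, 10.6% of those of Cdc20 and 10.4% of those of Plk1. How far these overlaps touch the values was not tested. The windows of Aspm are shared with no other gene, and its value at 24 h was -7.67 in the authors' deposited table.

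**Figure D4:**
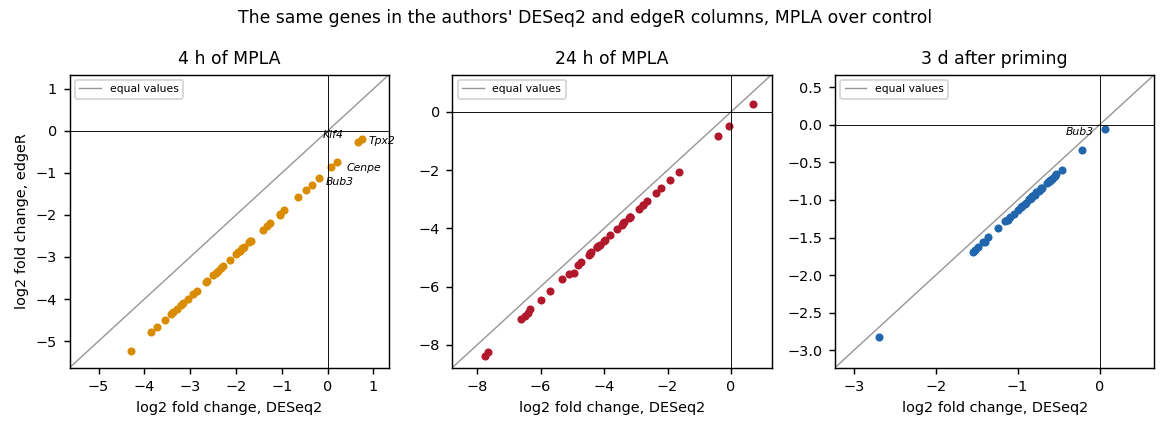
Log2 fold change of the 43 genes, MPLA over control, by DESeq2 (horizontal) and by edgeR (vertical) in the authors' deposited tables, 1 panel a time, with a grey line of equal values and thin lines at 0. Points run parallel to the grey line and below it, nearly 0.94 lower at 4 h, so that Tpx2, Kif4, Cenpe and Bub3 lie right of the vertical and under the horizontal 0 line there, as does Bub3 at 3 d.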

How the data were processed

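Per the labels' protocols, libraries of polyadenylated RNA were made with a stranded kit. Tools named without versions in the submitters' processing notes are TopHat2, HTSeq, bcl2fastq, DESeq, DESeq2 and edgeR, with the build mm10. Counting settings and annotation release are not given in the sources used here. The authors' deposited tables (3, each scaled on its own) hold, per the file headers, log2 fold changes and p-values from DESeq2 and edgeR, an unscaled log2 ratio, and a baySeq likelihood and error rate, taken as scores. As deposited, a log2 value is control over MPLA, and the sign is reversed here. The order of the groups and the values of Il6, Tnf, Il1b, Cxcl10 and Nos2, from -12.55 to -1.32 as deposited, settled the direction.

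No counts per library were used, so the DESeq2 adjusted p-values (Benjamini-Hochberg) of the authors are the test, and NA stays not tested. Recomputing the adjustment gave the deposited values. Standard errors assume a Wald test. All 43 members may be named, and of each other list the 3 lowest and 3 highest called genes, or fewer. Gata2 and Rbl2 are also named, outside that rule. The members and lists were chosen with earlier results of these data known. Promoters came from RefSeq GRCm38.p6, coordinates and overlaps from GENCODE M21. Work was done with Python 3.11.15, pandas 2.3.3 and scipy 1.17.1, and the calculations were tested on simulated data. Alternatives were the authors' edgeR columns, adjustment of all p-values, baySeq, calls by all 3 methods, a 2-fold minimum, a threshold of 0.01 and centring on all tested genes.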

Additional observations from a re-analysis of the deposited data

How the results depend on the processing

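Counts of lowered genes were 43 at 4 h, 42 at 24 h and 42 at 3 d in the authors' deposited edgeR columns. By the baySeq error rate in the authors' deposited tables they were 39, 42 and 34. Direction was then taken from DESeq2, since the baySeq columns give none. The 42 at 24 h include Bub3 (baySeq error rate 0.00149), which did not pass with DESeq2. No share of all genes passing by baySeq is given here. A 2-fold minimum left 14 genes lower at 3 d. Higher genes at 4 h numbered 0 with edgeR, 0 by all 3 methods and 0 at 2-fold or more, against 3 with DESeq2, and the 2-fold minimum also left 0 at 24 h. Median log2 changes with edgeR were -2.89, -4.42 and -0.98, and once those columns were centred on all tested genes, an alternative chosen after seeing the data, they were -1.92, -3.95 and -0.83, against -1.91, -3.94 and -0.83 for DESeq2 centred the same way. The medians thus moved with the near-constant offset between the columns. With edgeR the sign turned at 4 h for Tpx2 (-0.19), Kif4 (-0.26), Cenpe (-0.73) and Bub3 (-0.86) and at 3 d for Bub3 (-0.06), and Bub3 passed at 24 h (-0.47). The other 39, 42 and 42 values kept direction and call. That offset was 0.94 at 4 h, 0.41 at 24 h and 0.13 at 3 d, near the shift of each of these values. What the tools' tests add to the calls was not tested. No paired analysis was possible because the tables hold no values per library, and leaving out libraries was not run for the same reason. Depth per library is unknown, so no floor or counting interval is given.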

Other observations

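Of 23 regulators of the cell cycle genes, 10 were lower and 7 higher at 4 h, 9 and 9 at 24 h, and 5 and 6 at 3 d with DESeq2, while edgeR gave 17 and 4, 16 and 5, and 9 and 6 in the authors' deposited tables. With DESeq2 these are 43.5% and 30.4%, 39.1% and 39.1%, and 21.7% and 26.1%. Over all tested genes the DESeq2 shares were 31.0% and 31.8%, 32.2% and 32.4%, and 25.8% and 29.5%, so the DESeq2 counts lie near the background at most times. With edgeR 50.1%, 41.8% and 27.7% of all listed genes were lower, and 13.5%, 16.2% and 15.5% higher. The edgeR counts of lower genes among the 23 lie above those shares. Foxm1, a transcription factor that drives the mitotic genes, was lower at -1.84, -3.86 and -0.60 in the authors' deposited tables. E2f7, a repressor of the E2F family, was at -4.54 at 4 h and -4.62 at 24 h, and E2f2, an activator, at -5.70 and -2.42 in the authors' deposited tables. Rbl1, which encodes p107, a pocket protein of the repressive DREAM complex, was higher at 4 h (3.47) and 24 h (1.09), as it also was with edgeR (2.54 and 0.68) in the authors' deposited tables. E2f5, another DREAM component, was higher at 4 h (2.02) and 24 h (1.89) in the authors' deposited tables. Rbl2, a related pocket protein gene, went the other way, at -1.92, -0.97 and -0.13 by DESeq2 in the authors' deposited tables. By edgeR it was at -2.86, -1.39 and -0.26. The direction of the DREAM complex as a whole was not tested.

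Of 16 inhibitors of cyclin-dependent kinases and p53 targets, 7 were lower and 6 higher at 4 h, 9 and 3 at 24 h, and 6 and 8 at 3 d with DESeq2, whereas edgeR gave 12 and 4, 12 and 2, and 7 and 6 in the authors' deposited tables. The DESeq2 shares were 43.8% and 37.5% at 4 h, 56.2% and 18.8% at 24 h, and 37.5% and 50% at 3 d. They are to be read beside the DESeq2 shares of all tested genes just given. The edgeR counts are to be read beside the edgeR shares of all listed genes. Those were 50.1%, 41.8% and 27.7% lower, and 13.5%, 16.2% and 15.5% higher. Cdkn1a, which encodes the inhibitor p21, was higher at 4 h (3.85 by DESeq2 and 2.91 by edgeR) in the authors' deposited table. Its 24 h value in the authors' deposited table was 0.37 by DESeq2 but -0.05 by edgeR, so its direction then turned between the columns. Gadd45b, a stress-response gene, was higher at each time, at 5.43, 3.20 and 0.58, and Sesn1, a p53 target, was lower at 4 h (-4.90), 24 h (-4.21) and 3 d (-1.41) in the authors' deposited tables. Cdkn2c, the inhibitor p18, was lower at 4 h (-2.06) and at 24 h (-3.13) in the authors' deposited tables.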
